A study of Mus musculus with 10 samples.

Results

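The Rab proteins form the largest branch of the Ras superfamily of small GTPases. Each Rab switches between a GDP-bound form held in the cytosol and a GTP-bound form on one kind of membrane, where it recruits the effectors that move, tether and fuse vesicles. Early mouse embryos rely on such traffic while the outer cells build apical and basolateral surfaces as the trophectoderm forms. The Rab genes described here are those with a single gene symbol on the array made of Rab, a number and at most 1 letter. They are 58 of 16936 genes in the table, on 120 probe sets. Each gene is read at the probe set with the highest mean intensity over the 10 arrays.

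The data come from 10 single mouse embryos at 3.0 days post coitum, taken from the oviduct, each on its own Affymetrix array. The groups were 5 wild-type (WT) embryos and 5 embryos with a knockout of Klf5 (KO), a Kruppel-like transcription factor. The sources used here give neither the strain, the knockout allele, the deleted part of the gene nor the litters. Embryos are named by genotype and number. With litters unknown, a p-value here reflects only how far these single embryos scattered. Levels are log2(intensity + 16), and a difference is the KO mean minus the WT mean on that scale, which understates changes of dim probe sets.

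The Klf5 probe set read between 1096 and 4183 in the WT embryos and between 14.0 and 49.2 in the KO embryos, so each embryo followed its label. The array medians lay between 39.9 and 43.5. By the bioB control, a bacterial transcript added at hybridisation, the arrays formed a high set (WT1, WT2, WT3, KO1 and KO2) and a low set (WT4, WT5, KO3, KO4 and KO5). All 8 embryo markers examined, among them Pou5f1, Nanog and Cdx2, were above background. Of the markers found in the table, 2 of 6 for cumulus and granulosa cells, 2 of 5 for oviduct and 4 of 6 for blood were at background, and none of these 3 lists held a call. For cumulus cells the summed intensity ran from 240 to 307 in WT and from 258 to 325 in KO embryos. It ran from 332 to 447 against 329 to 389 for oviduct, and from 200 to 265 against 210 to 232 for blood.

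A gene is said to be at background where its mean level over the 10 arrays is under 5.55, the 40th percentile of all probe sets. By that rule 50 Rab genes were tested and 8 were at background. The latter were Rab3c, Rab5b, Rab9b, Rab27b, Rab33a, Rab37, Rab40b and Rab42, whose levels lay between 4.54 and 5.76 in single embryos. Among the 50 tested genes, 1 fell and 0 rose in KO embryos at an adjusted limma p under 0.05. The gene that fell was Rab4a. By the same rule 0.367% of all 23174 tested probe sets changed, 0.246% being lower and 0.121% higher. At an unadjusted p under 0.05 there were 6 Rab genes (12%), against 10.1% of all probe sets. Of these, 5 had lower and 1 had higher KO means, against 4.84% and 5.21% of all probe sets. KO means were lower for 29 of the 50 genes, against 50.6% of all probe sets. The median difference of the 50 genes was -0.02, and that of all tested probe sets was -0.00. The 95% confidence interval of the difference lay within 1 log2 unit on either side of 0 for 37 of the 50. Of all 23174 tested probe sets, 19057 had such an interval. The difference was smaller than 0.25 in size for 38 of the 50 and for 16322 of the 23174.

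**Figure D1:**
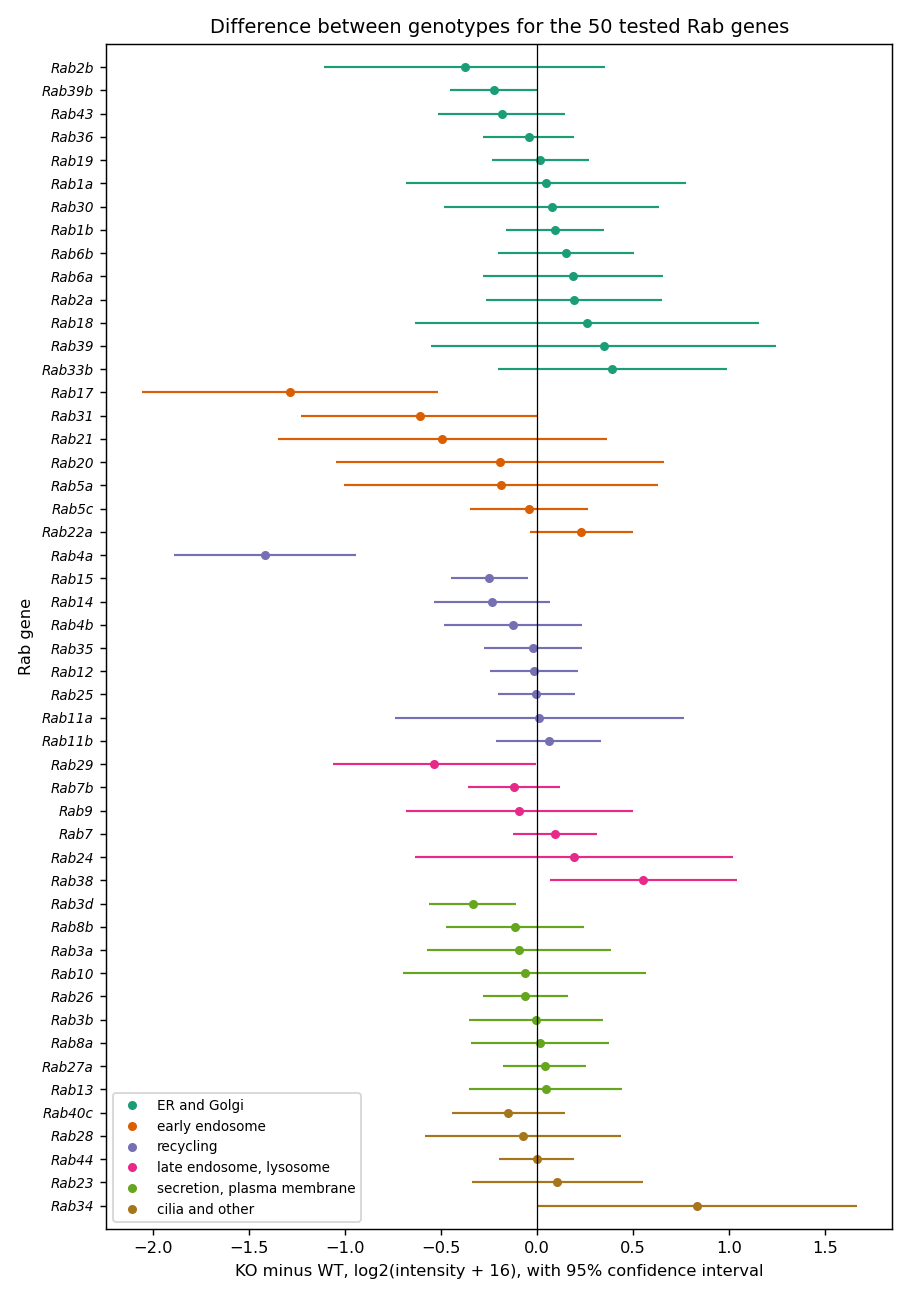
Difference between KO and WT embryos (log2 units, x axis) for each of the 50 tested Rab genes (y axis), with bars for the 95% confidence interval of the limma fit and colours for the compartment each gene is known for. Rab4a (-1.42) and Rab17 (-1.29) lie farthest to the left, and most other genes lie near 0.

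Rab4a directs the fast return of receptors from early endosomes to the plasma membrane, and its transcript fell in KO embryos by 2.68-fold. At its brightest probe set (1449048_s_at) the intensities were 407, 601, 681, 680 and 903 in WT1 to WT5. They were 325, 190, 180, 227 and 238 in KO1 to KO5. Every KO embryo lay below every WT embryo, KO1 being the nearest to them. With each gene read at its brightest probe set, only this 1 of the 50 Rab genes separated the genotypes fully (2%), against 2.33% of all tested probe sets. Mean levels were 9.35 ± 0.41 for WT against 7.93 ± 0.32 for KO (SD, n = 5), which differ by -1.42 with a confidence interval of -1.89 to -0.95. The adjusted p was 0.0271. A two-sided exact permutation test gave p = 0.00794 (n = 5 per genotype), the smallest that relabelling 5 against 5 embryos can give.

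The suffix s_at marks a probe set whose probes can match more than one transcript. The other tested Rab4a probe set (1418341_at) read 129, 154, 155, 57.5 and 78.0 in WT1 to WT5. It read 38.7, 19.1, 23.5, 15.3 and 58.9 in KO1 to KO5. KO5 lay just above WT4, so the genotypes overlapped by that pair alone. The difference was -1.47, close to that of the brighter probe set, with an adjusted p of 0.0858. With all tested Rab4a probe sets averaged, the difference was -1.44 and the adjusted p was 0.00943.

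The Rab4a call was near the threshold, while the difference stayed below 0 under each alternative run. Within the high-bioB arrays the difference was -1.10 and within the low-bioB arrays -1.80, and with the set as a block it was -1.45 (adjusted p = 0.0429). Without WT4 and WT5 it was -1.22 (adjusted p = 0.0763) at the brightest probe set and -1.85 (adjusted p = 0.0465) at the other. Leaving out WT2, WT3, WT4, WT5, KO2, KO3, KO4 or KO5 alone also ended the call, with adjusted p between 0.0526 and 0.0699 and differences between -1.44 and -1.30.

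**Figure D2:**
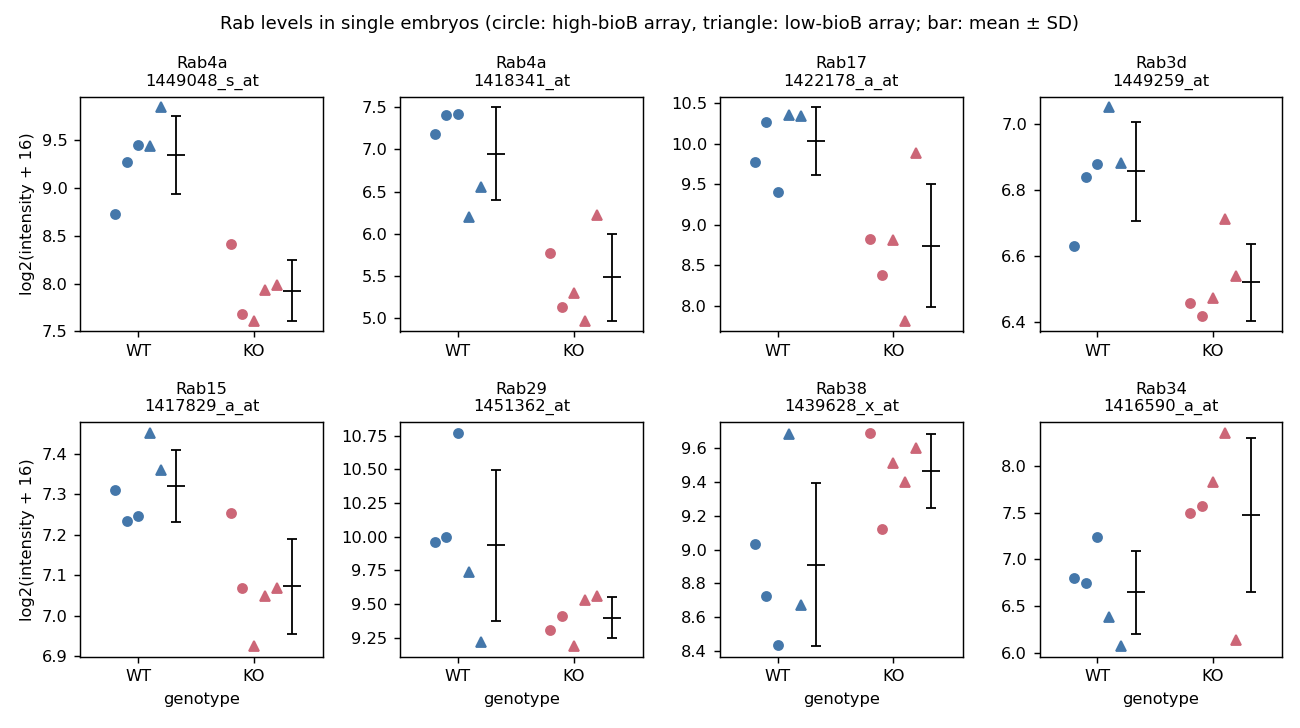
Level of 7 Rab genes in each embryo (y axis, log2(intensity + 16)) by genotype (x axis), with the array's probe set above each panel. Circles are high-bioB and triangles low-bioB arrays, and the bar is the mean ± SD of 5 embryos. Rab4a is shown at both tested probe sets, and at the first no KO embryo reaches the WT range.

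The other recycling Rabs did not pass the test. Rab4b, the closest relative of Rab4a, had mean levels of 7.29 ± 0.21 for WT against 7.16 ± 0.31 for KO (SD, n = 5), with a confidence interval of the difference from -0.48 to 0.24. Rab11a and Rab11b, which guide slow recycling and apical delivery, differed by 0.01 (interval -0.74 to 0.77) and 0.06 (interval -0.21 to 0.33). The other, dimmer tested probe set of Rab11a differed by -0.54 (interval -1.20 to 0.12), and that of Rab11b by -0.02. Rab25, the epithelial member of the Rab11 group, differed by -0.00 (interval -0.20 to 0.20). Its intensities lay between 72.9 and 85.8 in WT and between 66.7 and 87.9 in KO embryos. Rab15, a brake on early endosome traffic, had 143, 135, 136, 159 and 148 in WT1 to WT5 and 137, 118, 106, 116 and 118 in KO1 to KO5. KO1 alone lay inside the WT range, and the difference was -0.25 (adjusted p = 0.362, exact permutation p = 0.0238, n = 5 per genotype). Rab14, which acts between the Golgi and endosomes, differed by -0.23 (interval -0.54 to 0.07), and Rab35, which serves recycling at the cell cortex, by -0.02.

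Among early endosome Rabs, Rab17 had the second largest difference of all tested Rab genes. Rab17 is an epithelial Rab of apical recycling and transcytosis. Its intensities were 860, 1212, 664, 1287 and 1286 in WT1 to WT5 and 438, 316, 432, 209 and 927 in KO1 to KO5. The KO embryos other than KO5 lay below the WT range, while KO5 lay inside it. Mean levels were 10.03 ± 0.42 for WT against 8.74 ± 0.76 for KO (SD, n = 5), and the difference of -1.29 (interval -2.06 to -0.52) did not pass (adjusted p = 0.186, exact permutation p = 0.0238, n = 5 per genotype). Without KO5 it was -1.57 (adjusted p = 0.0674). The other Rab17 probe set was at background.

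Rab5a and Rab5c, which organise fusion at early endosomes, differed by -0.19 and -0.04, and Rab5b was at background. Rab31, which carries cargo between the trans-Golgi and endosomes, differed by -0.61 (adjusted p = 0.502). Its KO5 embryo was lowest, at 55.7. Rab21, known for integrin traffic, differed by -0.49, with a wide interval of -1.35 to 0.36. Rab20 and Rab22a differed by -0.19 and 0.23. Of the 7 tested genes of this compartment, 6 had lower KO means, against 50.6% of all probe sets, and none passed. Within the low-bioB arrays only Rab17 and Rab31 had lower KO means. There Rab5a (0.47), Rab20 (0.66), Rab5c (0.21), Rab21 (0.03) and Rab22a (0.16) had higher ones.

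In the late endosome and lysosome group, Rab38 had the higher KO mean at both of its tested probe sets. Rab38 sorts enzymes into lysosome-related organelles such as melanosomes. At the brightest probe set it read 507, 408, 331, 806 and 392 in WT1 to WT5 and 811, 541, 713, 660 and 760 in KO1 to KO5. WT4 lay among the highest KO embryos, and the other 4 WT embryos lay below all KO embryos. The difference was 0.55 (interval 0.07 to 1.04, adjusted p = 0.412). At the dimmer probe set (1417700_at) the values were 162, 183, 109, 118 and 74.3 in WT1 to WT5 and 224, 195, 228, 221 and 288 in KO1 to KO5. There every KO embryo lay above every WT embryo, with a difference of 0.81 (adjusted p = 0.159, exact permutation p = 0.00794, n = 5 per genotype). Rab38 passed at neither.

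Rab29, a regulator of the trans-Golgi and lysosomes, read 978, 1007, 1732, 836 and 580 in WT1 to WT5. In KO1 to KO5 it read 618, 666, 567, 725 and 737. The KO embryos lay close together, and WT5 lay among them. The difference was -0.54 (adjusted p = 0.486), -0.88 within the high-bioB and -0.05 within the low-bioB arrays. Rab7, the main Rab of late endosomes and lysosome fusion, had mean levels of 11.51 ± 0.12 for WT against 11.61 ± 0.13 for KO (SD, n = 5), with an interval from -0.12 to 0.31. Rab9, which returns mannose 6-phosphate receptors to the Golgi, differed by -0.09. Rab24, linked to autophagy, also had higher KO means at both of its tested probe sets (0.19 and 0.15), with intervals that hold 0.

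Of the Rabs of secretion and the plasma membrane, Rab3d, found on secretory granules, had the smallest p. Its intensities were 83.0, 98.6, 101, 116 and 102 in WT1 to WT5 and 71.8, 69.4, 72.8, 88.8 and 76.9 in KO1 to KO5. Only KO4 reached into the WT range, above WT1. The difference was -0.34 (interval -0.56 to -0.11, adjusted p = 0.246), and its other tested probe sets differed by -0.46 and -0.07. Rab8a and Rab10, which carry cargo to the basolateral membrane, differed by 0.01 (interval -0.35 to 0.38) and -0.06 (interval -0.70 to 0.57). Rab13, a Rab of tight junctions, differed by 0.05, and Rab3b by -0.01. Rab3a, known from synaptic vesicles, differed by -0.09 and Rab8b by -0.11. None of the 9 tested genes of this group passed.

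The 14 tested Rabs of the endoplasmic reticulum and Golgi lay between -0.38 and 0.39, and none had an unadjusted p under 0.05. Of these, 10 had higher and 4 had lower KO means, where 50.6% of all probe sets had lower ones. Without WT4 and WT5, Rab1a (-0.40), Rab18 (-0.35), Rab39 (-0.17), Rab30 (-0.15) and Rab6a (-0.01) turned to lower KO means. Rab6b (0.35), Rab33b (0.24), Rab19 (0.05), Rab2a (0.05) and Rab1b (0.02) kept higher ones. The 4 with lower KO means (Rab2b, Rab36, Rab39b and Rab43) kept them. Rab1a and Rab1b, which act between the endoplasmic reticulum and the Golgi, differed by 0.05 and 0.09, and Rab2a by 0.19. The other tested Rab2a probe sets differed by 0.13, -0.09 and -0.17. Rab6a, a Rab of the Golgi and of retrograde traffic, differed by 0.19, and its 2 other tested probe sets by 0.33 and 0.40. The largest difference was that of Rab33b (0.39, interval -0.20 to 0.99), a Golgi Rab that also binds the autophagy machinery. Next in size came Rab2b (-0.38) and Rab39 (0.35), with intervals that hold 0. Rab39b, a neuronal Rab of the Golgi, differed by -0.22 (interval -0.45 to 0.01).

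In the remaining group, Rab34, which takes part in the building of the primary cilium, differed by 0.83, just outside an unadjusted p of 0.05 (adjusted p = 0.497). It read 95.5, 91.5, 136, 67.4 and 51.1 in WT1 to WT5 and 165, 175, 212, 313 and 54.0 in KO1 to KO5. The KO embryos other than KO5 lay above all WT embryos, and KO5 was lower than all but WT5. Its dimmer probe set differed by 0.52 with KO5 again the lowest KO embryo, at 39.2. Without KO5 the brighter probe set differed by 1.17 (adjusted p = 0.132). Rab44 differed by -0.00 and Rab40c, which joins a ubiquitin ligase, by -0.15. Rab23, a Rab of cilia and hedgehog signalling, differed by 0.11 and Rab28 by -0.07.

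Of 22 Rab genes with at least 2 tested probe sets, all probe sets of the gene had differences of the same sign in 16. In 3 of them, Rab4a, Rab34 and Rab38, each tested probe set differed by over 0.3 in size. The probe sets of the other 6 genes differed in sign.

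The spread among WT embryos was uneven across the Rab genes. The SD was over 0.5 in WT embryos for 12 of the 50 genes and in KO embryos for 9. The median SD of the 50 was 0.30 in WT and 0.27 in KO embryos. Over all tested probe sets it was 0.27 and 0.25. Among the Rab genes the SD in WT embryos ran from 0.08 (Rab44) to 0.89 (Rab18). Many of the variable genes were low in WT4 and WT5, the WT embryos of the low-bioB set, where the mean of the low set was over 1 log2 unit below that of the high set for 8 of the 50 (16%, against 6.98% of all probe sets). These were Rab1a, Rab5a, Rab11a, Rab18, Rab20, Rab21, Rab24 and Rab39. For Rab1a the intensities were 5130, 5679 and 4173 in WT1 to WT3 and 2274 and 2243 in WT4 and WT5, while KO1 to KO5 had 3238, 4051, 5225, 4935 and 2166. WT4 and WT5 thus lay with KO5 and below the other 4 KO embryos. Rab11a read 2731, 2571, 2323, 783 and 1333 in WT1 to WT5 and 1790, 2019, 1618, 1237 and 2472 in KO1 to KO5, with WT4 the lowest of the 10. Rab18, found at the endoplasmic reticulum and on lipid droplets, read 832, 902, 592, 203 and 316 in WT1 to WT5 and 589, 774, 830, 553 and 352 in KO1 to KO5. For Rab18, WT4 and WT5 were the lowest of the 10 embryos.

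In the limma fit among WT embryos alone, 2 of the 50 genes (4%), Rab1a (-1.13) and Rab39 (-1.30), passed an adjusted p of 0.05 between the sets, against 3.64% of all probe sets. At an unadjusted p under 0.05 there were 15 (30%), against 22.2% of all. Of these, 11 were lower in WT4 and WT5 (22%, against 15% of all), and Rab3a (0.60), Rab6b (0.51), Rab43 (0.42) and Rab4b (0.36) were higher. Among KO embryos 0 of the 50 passed by limma, as did 0 of all probe sets. At an unadjusted p under 0.05 there were 0 (3.68% of all probe sets), and the 50 differences between the sets lay between -0.46 and 0.53. No Rab gene was lower at that p in the low-set KO embryos (1.84% of all probe sets), or lower by over 1 log2 unit (0.483%).

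**Figure D3:**
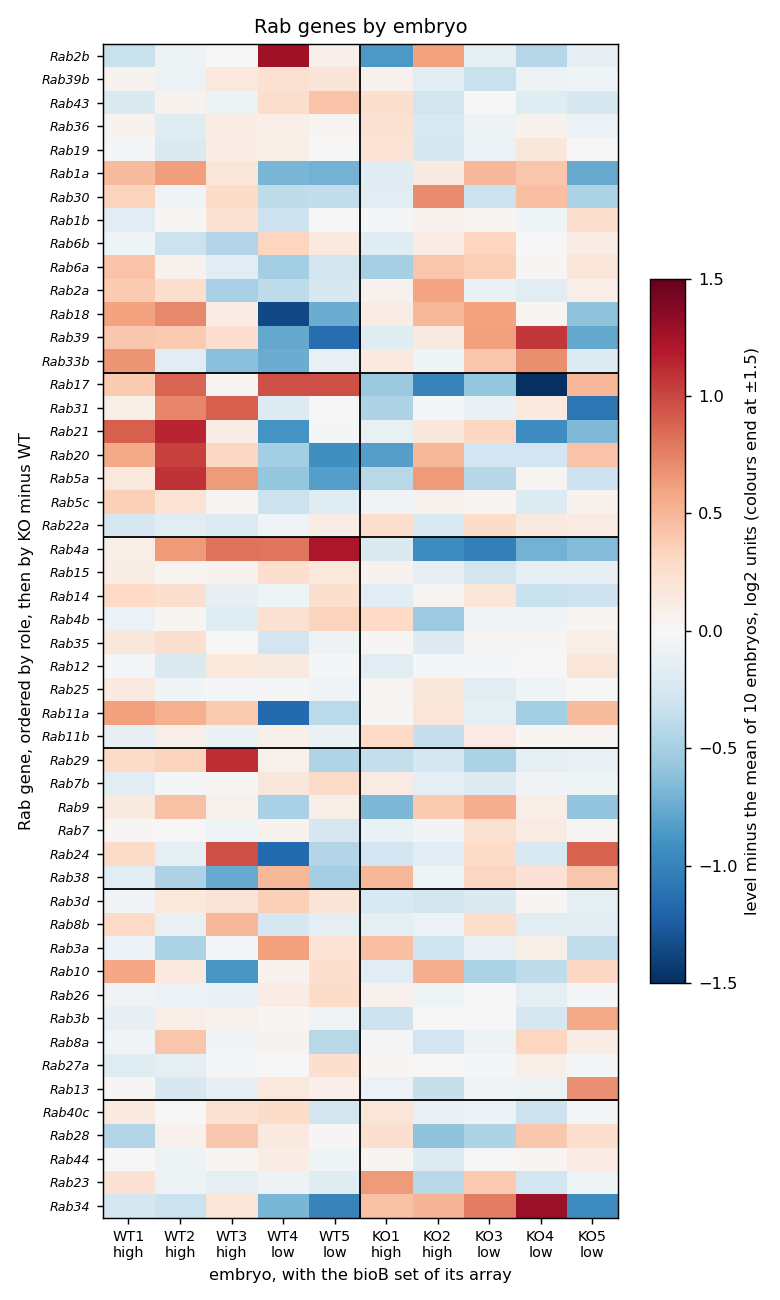
Level of each tested Rab gene (rows, grouped by compartment) in each embryo (columns, with the bioB set of the array) minus that gene's mean over the 10 embryos, in log2 units by colour. WT4 and WT5 are low at several genes, among them Rab1a, Rab11a, Rab18 and Rab39. Rab4a is above its mean in all WT and below it in all KO embryos, with WT1 and KO1 the nearest to that mean.

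The genotype was therefore also compared with the set as a block, within each set, and without WT4 and WT5. With the block, 1 Rab gene (Rab4a) passed (0.298% of all probe sets), and 6 had an unadjusted p under 0.05 (12%, against 11.2%). Within the high set 0 passed by limma (0.00432% of all), with 7 at an unadjusted p under 0.05 (14%, against 9.08%). Within the low set 0 also passed by limma (0 of all), with 7 at that p (14%, against 15.2%). Without WT4 and WT5, 0 passed by limma (0.315% of all) and 11 had an unadjusted p under 0.05 (22%, against 12.3%).

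In 20 of the 50 genes (40%, against 47.5% of all probe sets) the KO minus WT difference had the same sign in both sets. In 6 genes (12%, against 7.96% of all probe sets) it was over 0.3 in size in both sets and opposite in sign. In each of the 6 it was negative in the high and positive in the low set, while the 7.96% covers both directions. These were Rab24 (-0.60 and 1.11), Rab39 (-0.37 and 1.26), Rab20 (-0.80 and 0.66), Rab1a (-0.45 and 0.76), Rab11a (-0.41 and 0.73) and Rab5a (-0.51 and 0.47). The genotype by set interaction passed an adjusted limma p of 0.05 for 0 of the 50 genes and for 0 of all probe sets. Of the 50 genes, 7 (14%) had an unadjusted p under 0.05, against 12.6% of all probe sets. Differences of the same sign and over 0.3 in size in both sets were seen in 5 genes. No share of all probe sets was computed for this count. The 5 were Rab4a, Rab17 (-1.21 and -1.51), Rab3d (-0.35 and -0.39), Rab38 (0.67 and 0.33) and Rab34 (0.61 and 1.22).

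**Figure D4:**
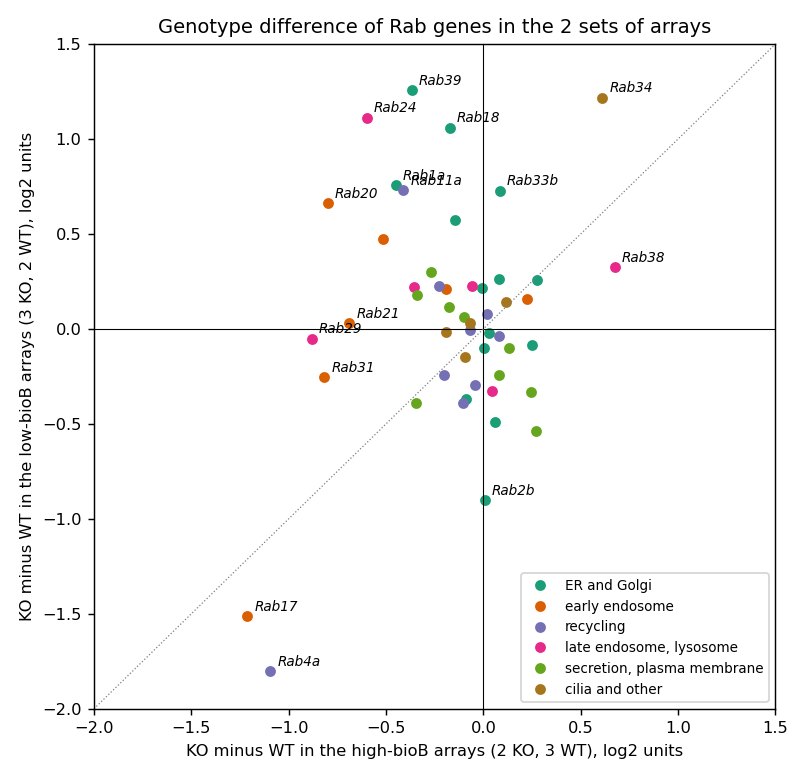
KO minus WT difference of each tested Rab gene within the high-bioB arrays (x axis, 2 KO and 3 WT) and within the low-bioB arrays (y axis, 3 KO and 2 WT), in log2 units, with the dotted line where both are equal. Rab4a and Rab17 are negative in both sets, and Rab39, Rab24, Rab20, Rab1a and Rab11a are negative in one and positive in the other.

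Some trophectoderm markers were lower in the KO embryos, as Rab4a was. Of 12 such markers, all tested, 1 fell (Krt8), where 0.246% of all probe sets did. At an unadjusted p under 0.05, 6 had lower KO means, against 4.84% of all probe sets. KO means were lower for 8 markers and higher for 4, namely Gata3 (0.47), Eomes (0.26), Dsp (0.07) and Atp1b1 (0.03), none of which passed. The summed intensity of the 12 ran from 29654 to 43534 in the WT embryos and from 9240 to 15427 in the KO embryos. Without the 3 brightest genes, Krt8, Krt18 and Tfap2c, the sum of the other 9 ran from 6294 to 7066 in WT and from 4739 to 10120 in KO embryos, so those ranges overlapped. Whether these markers account for any part of the Rab4a difference was not tested. In whole embryos, fewer cells of a type and less RNA per cell cannot be told apart.

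The proteins that load, switch and read the Rabs were examined as 5 lists. In the group that prenylates Rabs or holds them in the cytosol, 6 of 7 genes in the table were tested and 0 passed by limma, with 0 at an unadjusted p under 0.05. The smallest p values were those of Gdi2 (-0.26), Rabac1 (0.44) and Rabggtb (-0.20). Of 45 tested exchange factors, which load GTP, 0 passed by limma, and 5 had an unadjusted p under 0.05 (11.1%, against 10.1% of all probe sets). Of these Dennd3 (-0.36), Trappc5 (0.50) and Dennd2d (0.31) had the smallest p, with adjusted p between 0.279 and 0.369. The other tested Trappc5 probe set differed by -0.12.

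Of 36 tested genes of the GTPase-activating group, which switch Rabs off, 1 fell and 0 rose (0.246% and 0.121% of all probe sets), and 4 had an unadjusted p under 0.05 (11.1%, against 10.1% of all). The one that fell was Grtp1, a TBC domain protein, with a difference of -2.08 (adjusted p = 0.0371). Its other probe set differed by -1.63 and did not pass (adjusted p = 0.105). Tbc1d25 (0.63) and Tbc1d2b (-1.05) followed with adjusted p of 0.196 and 0.233. Without WT4 and WT5, Grtp1 did not pass (-1.85, adjusted p = 0.118).

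Of 39 tested effectors, 1 fell and 1 rose (0.246% and 0.121% of all probe sets), and 9 had an unadjusted p under 0.05 (23.1%, against 10.1%). Sh3tc2, a Rab11 effector known from Schwann cells, fell by 1.67-fold, with mean levels of 7.14 ± 0.12 for WT against 6.40 ± 0.14 for KO (SD, n = 5; adjusted p = 0.0164). Its intensities were 138, 124, 131, 108 and 126 in WT1 to WT5 and 81.3, 65.4, 70.3, 57.9 and 69.2 in KO1 to KO5, with no overlap. With the bioB set as a block it passed too (-0.71, adjusted p = 0.0233), as it did when WT4 and WT5 were left out (-0.80, adjusted p = 0.0369).

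Mical1, an actin-oxidising enzyme that binds Rab1 and Rab8 group members, rose by 2.21 (adjusted p = 0.0383), and its other probe set differed by 2.0 (adjusted p = 0.132). It did not pass with the bioB set as a block (2.14, adjusted p = 0.0638). Inpp5b, an inositol phosphatase that binds several Rabs, differed by -0.78, with all KO embryos between 96.1 and 172 and all WT embryos between 214 and 364 (adjusted p = 0.115). Myo5b, the motor of Rab11 vesicles, differed by -1.10 and Rbsn, which binds both Rab5 and Rab4, by 0.64 (adjusted p = 0.196 and 0.203). The other tested probe sets of Myo5b and Rbsn differed by only -0.11 and 0.21. Of 17 tested tethers of the exocyst and of the endosomal HOPS and CORVET complexes, 0 passed by limma and 2 had an unadjusted p under 0.05 (11.8%), Vps33a (0.85) and Exoc2 (0.42), followed by Exoc7 (0.36).

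**Figure D5:**
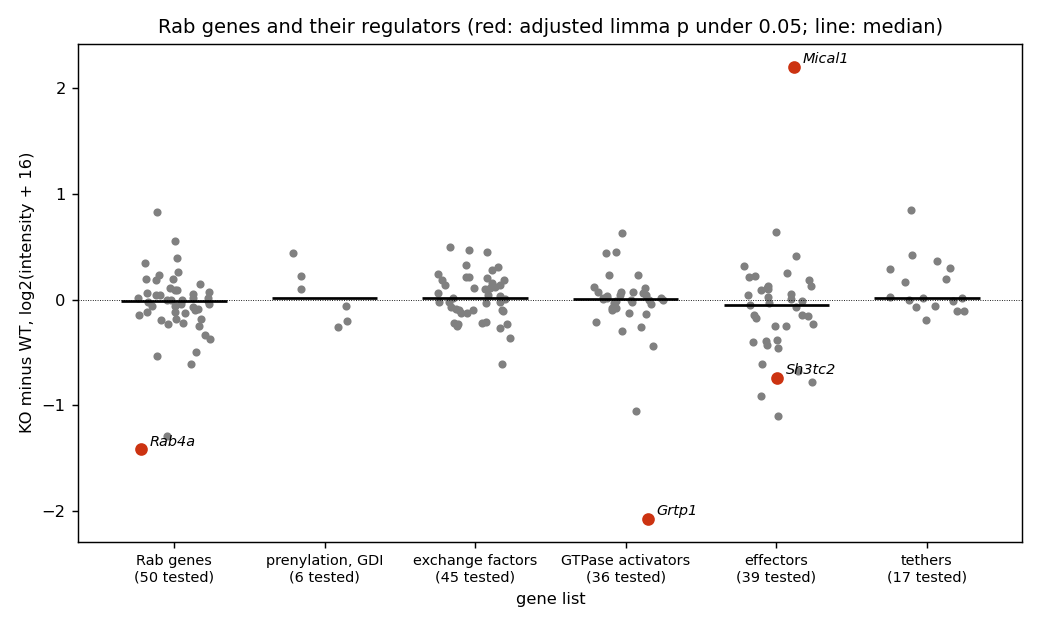
KO minus WT difference (y axis, log2 units) of every tested gene in the Rab family and in 5 lists of its regulators and effectors (x axis). Red points have an adjusted limma p under 0.05 and lines are list medians, all of which lie within 0.05 of 0.

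RefSeq promoter windows (GRCm38.p6) were held for 47 of the 58 Rab genes, and Rab4a and Rab38 were not among them. The 250 bases before the start were searched on both strands for CCCCGCCC and CCCCACCC, the letters of GC and CACCC boxes that Kruppel-like factors can bind. Of the 47 genes, 21 (44.7%) had a match in at least 1 window, against 31.2% of protein-coding genes. Among windows of at least 60% G and C, the share was 41.9% in Rab genes and 51.7% in protein-coding genes. The windows of Rab17 and Rab3d, the genes of smallest p among those with a window, are shown 5′ to 3′ with matches in capitals. They lie at chr1:90967668-90967917 and chr9:21918184-21918433, both on the minus strand.
Rab17: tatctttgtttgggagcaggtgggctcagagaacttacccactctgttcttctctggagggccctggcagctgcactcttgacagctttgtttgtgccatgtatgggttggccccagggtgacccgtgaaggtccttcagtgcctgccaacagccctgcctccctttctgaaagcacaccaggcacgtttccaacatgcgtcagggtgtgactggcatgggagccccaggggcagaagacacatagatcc
Rab3d: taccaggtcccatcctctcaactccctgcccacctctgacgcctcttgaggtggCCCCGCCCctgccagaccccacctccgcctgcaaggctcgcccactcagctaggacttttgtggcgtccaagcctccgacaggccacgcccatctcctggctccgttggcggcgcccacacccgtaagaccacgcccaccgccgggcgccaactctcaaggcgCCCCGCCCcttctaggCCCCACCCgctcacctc
Rab3d had 3 matches and Rab17 had 0, which says only whether these letters are in these windows.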

How the data were processed

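The deposited values are linear intensities, 1 for each probe set on each array (from the values). Per the labels' protocols, cDNA was made by the method of Kurimoto and colleagues, from single embryos per the series' design text, which names GeneSpring GX for the analysis. The sources used here do not state the background correction or normalization. Of 38676 probe sets, 53 controls were left out and 30854 had a single symbol. All 58 Rab symbols matched the RefSeq table by gene identifier.

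Deposited intensities were taken to log2(intensity + 16), and probe sets whose mean was under the 40th percentile were left out. The test was limma (3.58.1, R 4.3.3; lmFit and eBayes, two-sided), with Benjamini-Hochberg adjustment over all 23174 tested probe sets, and was tested on simulated data. Precision is limited by having 5 arrays a genotype. The members, lists and alternatives were chosen with earlier results of these data known, WT4 and WT5 and the bioB sets included. The interaction fit was added after the data were seen.

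Named Rab genes are those past the threshold, with an unadjusted p under 0.05 or without overlap, and the 8 largest and 5 smallest differences. In each list, genes past the threshold and the 3 of smallest p are named. Other genes named, and the 6 that turned sign between sets, were chosen for their roles or after their values were seen.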

Additional observations from a re-analysis of the deposited data

Results flagged for a closer look

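In 7 of the 100 groups of 5 embryos (50 tested Rab genes, each in WT and KO), 1 embryo lay far from the other 4, where chance gives about 1 in 20. Among WT embryos, Rab25 was at 6.67 in WT1 and between 6.47 and 6.51 in the others. Rab23 was at 6.92 in WT1, with the others between 6.53 and 6.63, and Rab2b at 8.43 in WT4, with the others between 6.82 and 7.23. Rab36 was at 6.14 in WT2, below the others at 6.35 to 6.43. Among KO embryos, Rab13 was at 7.06 in KO5 and between 6.02 and 6.30 in the others. Rab8b was at 6.07 in KO3, with the others between 5.63 and 5.72. Rab35 was at 7.54 in KO2, below the others at 7.74 to 7.81.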

How the results depend on the processing

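The Rab4a difference was negative in each of the 24 alternatives, between -1.80 and -1.10, and its adjusted p ran from 0.00943 to 0.440. The number of Rab genes that fell was 1 in 11 alternatives and 0 in 13. It was 0 with quantile normalization (Rab4a -1.46, adjusted p = 0.0620), within the high-bioB arrays, within the low-bioB arrays, without WT4 and WT5 and with the embryo number as a replicate block, and between 0 and 1 when single embryos were left out. The number that rose was 0 in each of these. The median difference of the tested Rab genes was -0.0922 within the high-bioB and 0.0480 within the low-bioB arrays, and between -0.0522 and 0.000470 when single embryos were left out. Of all tested probe sets, 85 passed in the main fit with all embryos, and the count ran from 0 to 116 over 23 alternatives. Within a set of 5 embryos, 1 passed in the high-bioB and 0 in the low-bioB arrays, and counts were 24 with the replicate block, 58 with no level filter and 45 to 63 when single embryos were left out. With the replicate block the Rab4a adjusted p was 0.128. The embryo numbers were not treated as pairs: the deviations of same-numbered embryos correlated between -0.03 and 0.18, and 2 of 5 WT embryos correlated best with their own number. None of the other 14 Rab genes named by the rule passed under any alternative. Among these, Rab11a, Rab44, Rab25, Rab3b and Rab8a, whose differences at the brightest probe set are near 0, changed sign in 9, 8, 7, 7 and 6 alternatives and Rab21 in 1.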
